A study of Mus musculus with 12 samples.

Results

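The 9 genes described here mark the smooth muscle that lies around the airways and the blood vessels of the lung. They are Acta2, Actg2, Myh11, Mylk, Cnn1, Tagln, Des, Lmod1 and Myocd. Members were all probe sets of the array whose annotation gives 1 of these symbols alone, which made 16 of 45101 probe sets, and 9 of the 18194 genes with a probe set of 1 symbol. No probe set with several symbols held a member.

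RNA was measured in whole lung of male A/J mice aged 8 to 10 weeks, on Affymetrix arrays, in 4 groups of 3 arrays. Lungs were taken on day 4 after particles or their vehicle. PBS/PBS mice had vehicle alone, and OVA/PBS mice had ovalbumin, the allergen of this asthma model, at 0.4 mg/kg into the peritoneum on day 0 and at 30 mg/kg into the trachea on day 14. PBS/PM mice were naive mice that had 50 µl of a 10 mg/ml suspension of Baltimore ambient particulate matter, and OVA/PM mice had both exposures. The methods place the particles 3 days after the tracheal OVA dose, by instillation into the trachea. Lungs were thus taken later after OVA than after particles. The methods name 3 animals per group, so each array is taken as 1 animal. Precision is limited by having 3 arrays in a group. Each value is a log2 intensity normalized by the authors with GCRMA, and a fold is the ratio that a difference of log2 means gives.

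The names OVA and PM carry a doubt. Fold changes that the study printed for these groups were found again in the arrays, for the genes checked, only with both names exchanged. Clca1, a goblet cell product that rises with allergen, lay between 13.95 and 14.88 in the arrays labelled PBS/PM, between 8.10 and 8.69 in those labelled OVA/PBS, between 14.49 and 14.71 in OVA/PM and between 2.38 and 2.40 in PBS/PBS. Mmp12, a macrophage elastase, had the reverse order, with 7.24 to 7.95 in PBS/PM and 12.71 to 12.94 in OVA/PBS. Cd68, a macrophage gene, differed from PBS/PBS by 0.20 on the log2 scale in the arrays labelled PBS/PM and by 2.27 in those labelled OVA/PBS (SE 0.32 and 0.28), and limma called 16 and 4326 probe sets in these comparisons. The study reported that OVA affected lung genes less than PM did, the reverse of these counts. For the Clca1 probe set, under the symbol Clca3, it printed a far larger fold with OVA than with PM, the reverse of the labels. It also reported more macrophages in airway lavage with OVA and no change with PM, the order of Cd68 under the labels kept. That report is of cell counts in lavage, an unlike measure to RNA of whole lung. These values do not settle the names. The labels were kept, and an exchange would swap the PBS/PM and OVA/PBS results below and leave OVA/PM against PBS/PBS as it is. In OVA/PM replicate 3 the spiked controls BioB and BioC had mean log2 intensities of 6.65 and 7.56, while the highest of the remaining 11 arrays had 4.68 and 3.95, so the counts of called members and of called list genes in OVA/PM against PBS/PBS are also given without it. The lung label was checked against Sftpc, a surfactant protein gene of alveolar epithelium, which lay between 15.40 and 15.71 on all 12 arrays.

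Smooth muscle contracts when calcium and calmodulin activate myosin light chain kinase, which phosphorylates the light chain of smooth muscle myosin so that it can pull on actin. The genes of this apparatus are switched on by serum response factor, which binds CArG boxes, together with its coactivator myocardin. In the lung this muscle sets the calibre of the airways and vessels, and its contraction narrows the airways in asthma. Acta2 and Actg2 encode the smooth muscle actins, Myh11 the smooth muscle myosin heavy chain and Mylk the kinase. Cnn1 (calponin) and Tagln (transgelin) encode proteins that bind actin. Des encodes desmin, an intermediate filament that cardiac and skeletal muscle also hold, Lmod1 encodes leiomodin, which nucleates actin filaments, and Myocd encodes myocardin, which is also made in heart muscle.

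The promoters of the members that passed the test against PBS/PBS in OVA/PM are shown because CArG boxes near a start site are where myocardin and serum response factor act on such genes. Sequences are those of RefSeq for GRCm38.p6, from 250 bases before to 50 bases after the start site that the sequence table uses, 1 per gene, and 5 of the 9 members were matched (Acta2, Cnn1, Des, Lmod1 and Mylk). That site is the outer start of the annotated gene for Des and Lmod1, and lies 212, 32 and 39751 bases inside it for Acta2, Cnn1 and Mylk. The motifs searched on both strands were the CArG box (CC, then 6 bases that are each A or T, then GG), the same box with up to 1 G or C among those 6 bases, and CAGCTG, an E-box. Capitals mark the matches.
Acta2, chr19:34255324-34255623, minus strand: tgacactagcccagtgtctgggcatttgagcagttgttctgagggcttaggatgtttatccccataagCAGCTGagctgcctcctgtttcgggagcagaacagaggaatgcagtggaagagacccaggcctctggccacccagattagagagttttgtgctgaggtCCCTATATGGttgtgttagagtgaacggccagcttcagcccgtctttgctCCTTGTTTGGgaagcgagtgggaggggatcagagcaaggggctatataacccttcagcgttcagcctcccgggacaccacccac
Cnn1, chr9:22099003-22099302, plus strand: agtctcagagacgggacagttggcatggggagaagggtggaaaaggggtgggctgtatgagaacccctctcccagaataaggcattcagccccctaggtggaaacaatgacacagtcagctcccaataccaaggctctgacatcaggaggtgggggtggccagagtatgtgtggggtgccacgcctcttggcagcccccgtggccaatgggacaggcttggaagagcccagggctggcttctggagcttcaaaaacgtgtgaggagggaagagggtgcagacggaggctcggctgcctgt
Des, chr1:75360042-75360341, plus strand: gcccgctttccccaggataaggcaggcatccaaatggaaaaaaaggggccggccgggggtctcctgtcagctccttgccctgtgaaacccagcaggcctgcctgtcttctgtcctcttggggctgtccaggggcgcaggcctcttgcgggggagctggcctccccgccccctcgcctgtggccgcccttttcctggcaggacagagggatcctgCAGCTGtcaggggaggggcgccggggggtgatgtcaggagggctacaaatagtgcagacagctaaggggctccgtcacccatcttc
The Acta2 window held 2 boxes with 1 G or C in the core, CCCTATATGG starting 84 bases before the site used and CCTTGTTTGG starting 34 bases before it, and a CAGCTG that starts 182 bases before it, all of them inside the outer bounds of the annotated gene. Such a box, the perfect one included, was found in 9.98% of the 32851 promoters of the table, and in no other member among the 5. The perfect CArG box was found in 0 of the 5 windows and in 1.63% of all promoters. Des and Lmod1 held CAGCTG, starting 36 and 45 bases before the site used, and with Acta2 that made 3 of 5 windows against 16.3% of all promoters. Matches of letters describe these windows only.

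In OVA/PM lungs 3 of the 8 members tested were lower than in PBS/PBS lungs, Des, Cnn1 and Acta2, by 1.84-fold, 1.74-fold and 1.23-fold. All 8 had fold changes below 0, with a median log2 fold change of -0.33 beside -0.03 over all probe sets tested. Of all 22538 probe sets tested, 10.9% were called lower in this comparison and 10.9% higher, by limma with an adjusted p under 0.05. In whole lung, fewer cells of a type and less RNA per cell cannot be told apart.

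Before the values, the members that the array measured have to be separated from those it did not. To be tested, a probe set had to reach 4.93, the median of all values, on every array of 1 of the groups compared. Of the 16 probe sets 10 passed, in 8 genes, and 5 were under that level on all 12 arrays, with values between 1.73 and 2.79. Those 5 were second probe sets of Acta2 (2 of them), Myh11, Des and Myocd. For Myocd the remaining probe set (1425978_at) passed in no group, so the gene was not tested. It read 3.87, 3.81 and 3.88 in PBS/PBS, 3.90, 5.24 and 4.08 in PBS/PM, 3.54, 3.71 and 3.96 in OVA/PBS, and 4.03, 3.95 and 4.60 in OVA/PM. PBS/PM replicate 2 was the 1 array that reached the level. For genes with more than 1 measured probe set the one with the highest mean is given first.

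**Figure D1:**
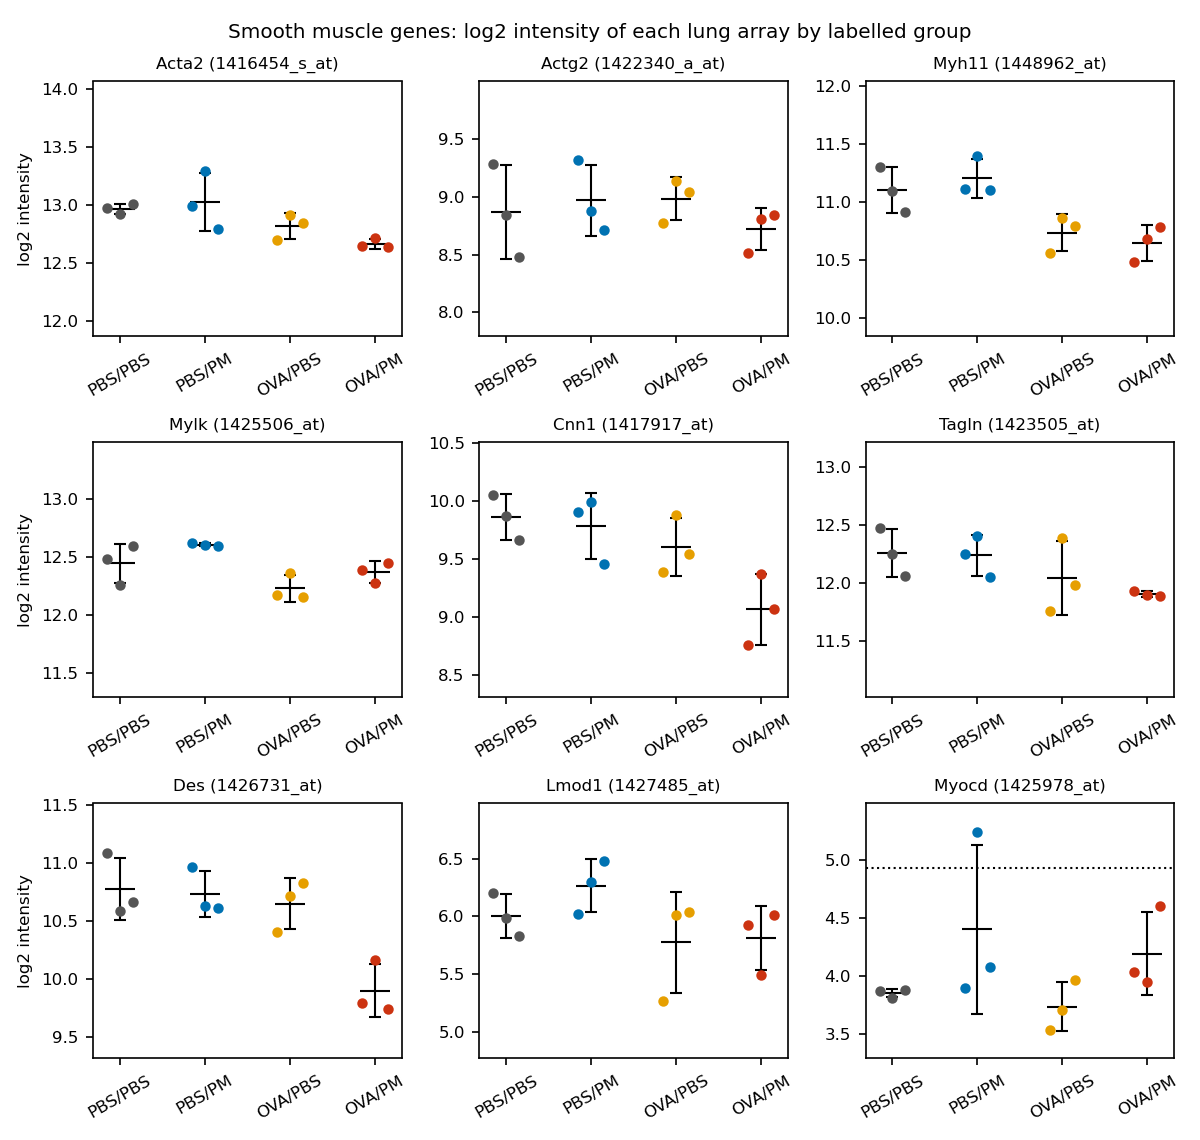
Log2 intensity (y axis) of the 9 genes on each of the 12 arrays by labelled group (x axis); points are arrays, the bar is the mean and the whiskers are 1 SD (n = 3), every panel spans the same number of log2 units, and the dotted line for Myocd is the filter level of 4.93. Des and Cnn1 lie lowest in the OVA/PM arrays without overlap with any other group, while the groups overlap throughout for Actg2.

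Of the actins, Acta2 passed the test in OVA/PM against PBS/PBS and Actg2 did not, and their difference was not tested. Acta2 (1416454_s_at; gene at chr19:34240336-34255585) read 12.97, 12.92 and 13.01 in PBS/PBS, 12.99, 13.30 and 12.80 in PBS/PM, 12.70, 12.91 and 12.84 in OVA/PBS, and 12.65, 12.72 and 12.64 in OVA/PM. The OVA/PM arrays lay under all PBS/PBS and all PBS/PM arrays and overlapped those of OVA/PBS. The change against PBS/PBS was -0.30 on the log2 scale (SE 0.08, adjusted p = 0.0449, limma), and it no longer passed when any 1 of the 6 arrays was left out, at adjusted p of up to 0.121, nor after a further quantile normalization (0.0648) or in a fit of all 4 groups (0.0794). With a block for the replicate number it did not pass either. Actg2 (1422340_a_at), the actin best known from gut muscle, read 9.28, 8.84 and 8.47 in PBS/PBS and 8.51, 8.81 and 8.84 in OVA/PM. These groups overlapped, the log2 fold change was -0.15 (SE 0.22, adjusted p = 0.657, limma), and its 95% interval ran from -0.67 to 0.37. The suffix of the Acta2 probe set marks probes shared by more than 1 transcript, so a part of its signal may come from related actins.

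Myosin and its kinase were next. Myh11 (1448962_at) read 11.30, 11.10 and 10.91 in PBS/PBS, 11.12, 11.40 and 11.10 in PBS/PM, 10.56, 10.86 and 10.79 in OVA/PBS, and 10.48, 10.68 and 10.79 in OVA/PM. All 6 arrays of animals labelled as given OVA lay under all 6 of the others. In OVA/PM the log2 fold change was -0.56 against PBS/PM (SE 0.13, adjusted p = 0.0387, limma), which passed, and -0.45 against PBS/PBS (SE 0.14, adjusted p = 0.0607, limma), which did not. In OVA/PBS it was -0.37 against PBS/PBS (SE 0.14, adjusted p = 0.102, limma). The call against PBS/PM was lost when any 1 of the 6 arrays was left out, at adjusted p between 0.0611 and 0.108, and without the filter, at 0.0718. It was also lost with a block for the replicate number. Against PBS/PBS it passed in 4 alternatives, with the filter at the 75th percentile of all values (0.0353), in a fit of all 4 groups (0.0304), with an intensity trend and robust moderation (0.0414) and without PBS/PBS replicate 3 (0.0467).

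Mylk had 3 measured probe sets, all designed on the same transcript record, and they differed. The brightest, 1425506_at, read 12.49, 12.26 and 12.59 in PBS/PBS, 12.62, 12.61 and 12.60 in PBS/PM, 12.17, 12.37 and 12.16 in OVA/PBS, and 12.39, 12.28 and 12.46 in OVA/PM, and its log2 change in OVA/PM against PBS/PBS was -0.07 (SE 0.12, adjusted p = 0.679, limma). The probe set 1425505_at read 12.20, 12.32 and 12.56 in PBS/PBS, 12.03, 12.13 and 12.06 in PBS/PM, 11.53, 11.89 and 11.46 in OVA/PBS, and 11.63, 11.56 and 11.72 in OVA/PM. On this probe set all 3 exposed groups lay under PBS/PBS without overlap. It was 1.65-fold lower in OVA/PM and 1.66-fold lower in OVA/PBS (-0.72, SE 0.12, and -0.73, SE 0.15, on the log2 scale, with limma's adjusted p at 0.0104 and 0.0291), and -0.29 on the log2 scale in PBS/PM (SE 0.11, adjusted p = 0.583, limma), which did not pass. The dimmest, 1425504_at, read 7.42, 7.23 and 7.41 in PBS/PBS and 6.95, 7.06 and 6.92 in OVA/PBS, which passed (log2 fold change -0.38, SE 0.09, adjusted p = 0.0376, limma), and 6.85, 6.94 and 7.31 in OVA/PM, which overlapped PBS/PBS. So whether Mylk counts as lower depends on the probe set, and the count of 3 members rests on the brightest.

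The disagreement inside Mylk was followed within each array, after its values had been seen. The level of 1425505_at minus that of 1425506_at was -0.29, 0.06 and -0.03 in PBS/PBS, -0.59, -0.48 and -0.54 in PBS/PM, -0.64, -0.47 and -0.70 in OVA/PBS, and -0.77, -0.72 and -0.73 in OVA/PM. All 9 arrays of exposed animals lay under all 3 PBS/PBS arrays. The difference shifted by -0.45, -0.52 and -0.65 in PBS/PM, OVA/PBS and OVA/PM against PBS/PBS. An exact permutation test gave a two-sided p of 0.1 each time, the smallest that 3 arrays against 3 can give. Arrays without overlap always give this p, so it adds nothing to the lack of overlap. The 3 comparisons also share the PBS/PBS arrays.

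**Figure D2:**
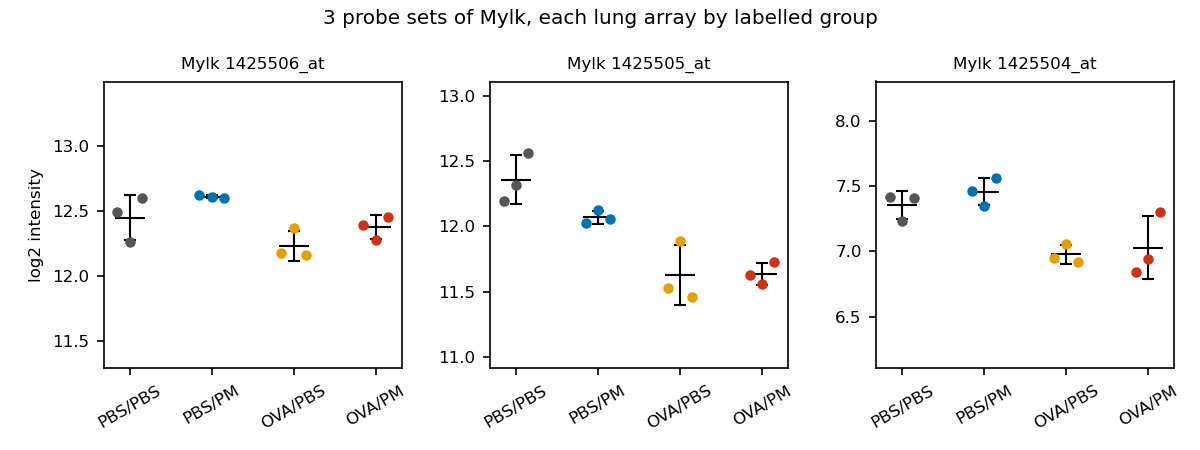
Log2 intensity (y axis) of the 3 measured Mylk probe sets on each of the 12 arrays by labelled group (x axis); points are arrays, the bar is the mean and the whiskers are 1 SD (n = 3). The middle panel, 1425505_at, has all 3 exposed groups under the PBS/PBS arrays, and the left panel, 1425506_at, does not.

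Of the actin-binding proteins, calponin was lower and transgelin did not pass. Cnn1 (1417917_at; gene at chr9:22099221-22109221) read 10.06, 9.87 and 9.66 in PBS/PBS, 9.90, 10.00 and 9.46 in PBS/PM, 9.39, 9.88 and 9.54 in OVA/PBS, and 8.76, 9.37 and 9.07 in OVA/PM. The OVA/PM arrays lay under all the other 9. The log2 fold change against PBS/PBS was -0.80 (SE 0.18, adjusted p = 0.0281, limma), and the call was lost at adjusted p of up to 0.0910 without PBS/PBS replicate 1 or 2 or OVA/PM replicate 1 or 3, and at 0.0652 without the filter. With a block for the replicate number the call was lost too. Tagln (1423505_at) read 12.47, 12.24 and 12.05 in PBS/PBS, 11.75, 12.39 and 11.98 in OVA/PBS, and 11.93, 11.89 and 11.88 in OVA/PM. The OVA/PM arrays lay just under the lowest PBS/PBS array, and the log2 fold change of -0.35 did not pass (SE 0.12, adjusted p = 0.0860, limma).

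Desmin had the largest fold of the 8 in OVA/PM against PBS/PBS. Des (1426731_at; gene at chr1:75360292-75368579) read 11.08, 10.58 and 10.67 in PBS/PBS, 10.97, 10.63 and 10.61 in PBS/PM, 10.41, 10.72 and 10.83 in OVA/PBS, and 9.79, 10.16 and 9.74 in OVA/PM. The first 3 groups overlapped and the OVA/PM arrays lay under all of them. The log2 fold change was -0.88 against PBS/PBS (SE 0.18, adjusted p = 0.0192, limma) and -0.84 against PBS/PM (SE 0.16, adjusted p = 0.0204, limma). Against OVA/PBS it was -0.75 (SE 0.16), with an unadjusted p of 0.0031 in limma and an adjusted p of 0.332, so it did not pass. The call against PBS/PBS was lost without OVA/PM replicate 1 or replicate 3, at adjusted p of 0.0665 and 0.0571 respectively. The call against PBS/PM was lost in 6 alternatives, at adjusted p between 0.0530 and 0.0668, which were no filter, the replicate block, and the omission of PBS/PM replicate 1 or 2 or OVA/PM replicate 1 or 3. Lmod1 (1427485_at) was dim, at 6.21, 5.99 and 5.83 in PBS/PBS, 6.02, 6.30 and 6.48 in PBS/PM, 5.27, 6.01 and 6.04 in OVA/PBS, and 5.93, 5.50 and 6.01 in OVA/PM. Its log2 fold change in OVA/PM against PBS/PBS was -0.20 (SE 0.17, adjusted p = 0.443, limma).

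Across the comparisons, calls on 1 probe set per gene were made in OVA/PM against PBS/PBS and against PBS/PM. Between PBS/PM and PBS/PBS 0 of 8 members were called by limma. An unadjusted p under 0.05 was found for 0 of the 8, beside 1810 of all 22246 probe sets tested. There 0.018% of all probe sets were called lower, and the members' log2 fold changes ran from -0.08 for Cnn1 to 0.26 for Lmod1. Between OVA/PBS and PBS/PBS 0 of 8 were called by limma, where 10.5% of all probe sets were called lower. In that comparison 1 of the 8, Myh11, had an unadjusted p under 0.05, beside 8728 of all 22498 probe sets tested. The median there was -0.22 beside -0.05 over all probe sets tested, and 2 members, Acta2 and Myh11, had no overlap, against 25.6% of all probe sets that lay lower without overlap. Between OVA/PM and PBS/PBS 5 of 8 members lay lower without overlap, against 23.2% of all. Between OVA/PM and PBS/PM 2 of 8 were called lower, Des and Myh11, against 5.77% of all, and 7 of 8 lay lower without overlap, all but Actg2, against 19.2% of all. Without OVA/PM replicate 3 the members without overlap numbered 5 against PBS/PBS and 7 against PBS/PM, beside 29.6% and 25.2% of all. The comparisons against PBS/PBS share the same control arrays.

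The OVA/PM arrays were also compared with each single exposure, and the interaction was tested. As labelled, OVA/PM against OVA/PBS is the effect of particles in OVA-challenged lungs. With the names exchanged, OVA/PM against PBS/PM would be that effect, and the interaction would be the same. In OVA/PM against PBS/PM Des and Myh11 were called lower. Outside the count of 8, Mylk 1425505_at was called lower too, at -0.44 on the log2 scale (SE 0.09, adjusted p = 0.0272, limma). Between OVA/PM and OVA/PBS 0 of 8 members were called by limma, and 0.13% of all probe sets were called in either direction. An unadjusted p under 0.05 was found for 2 of the 8 (Des, and Cnn1 at a log2 fold change of -0.54, SE 0.20). It was found for 1965 of all 22379 probe sets tested. The interaction of OVA and PM was called for 0 of 8 members, against 0.0264% of all 22688 probe sets tested. The interaction was below 0 for all 8, with a median of -0.22 on the log2 scale beside 0.008 over all probe sets tested. The 8 share their arrays, so their signs are not independent. Des had the largest interaction, at -0.71 (SE 0.25, adjusted p = 0.695, limma). Des was the 1 member with an unadjusted p under 0.05, beside 1412 of all 22688 probe sets tested. A fall in OVA/PM beyond the separate exposures was therefore not shown for any member at this number of arrays. Between OVA/PBS and PBS/PM 0 of 8 were called by limma, where 1.96% of all were called lower, although Mylk 1425504_at passed there at -0.48 (SE 0.09, adjusted p = 0.0453, limma). In that comparison 2 of the 8, Mylk and Myh11, had an unadjusted p under 0.05, beside 6929 of all 22404 probe sets tested.

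**Figure D3:**
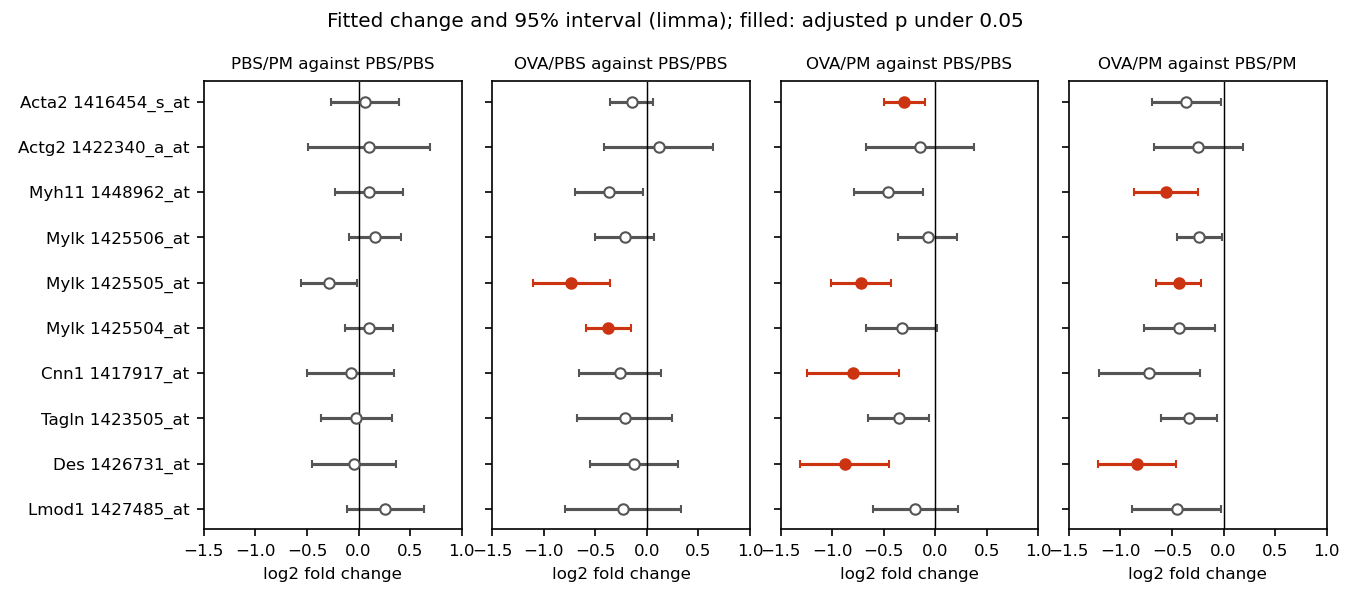
Log2 fold change (x axis) of the 10 measured probe sets of the 8 tested genes (y axis) in 4 comparisons, with 95% intervals from limma (n = 3 arrays per group); filled red points passed an adjusted p of 0.05. Des, Cnn1, Acta2 and Mylk 1425505_at passed in OVA/PM against PBS/PBS, and none passed in PBS/PM against PBS/PBS.

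Counts above 0 moved with single arrays, while those of PBS/PM and of OVA/PBS against PBS/PBS, of OVA/PM against OVA/PBS and of the interaction were 0 without any 1 array too. For OVA/PM against PBS/PBS the count of 3 became 0 without OVA/PM replicate 3, the array with the bright spiked controls, and 0 without OVA/PM replicate 1. Of all probe sets 8.18% and 5.83% were then called lower, beside 10.9% with all arrays. The count became 1 without PBS/PBS replicate 1 or 2, 2 without OVA/PM replicate 2, and 4 without PBS/PBS replicate 3. In that order 5.65%, 4.02%, 7.77% and 9.9% of all probe sets were called lower. The median log2 fold change of the 8 members stayed between -0.40 and -0.27 over these 6 omissions. For OVA/PM against PBS/PM the count of 2 became 0 without OVA/PM replicate 1 or 3 or PBS/PM replicate 1 or 2, and 1 without OVA/PM replicate 2 or PBS/PM replicate 3, with the median between -0.48 and -0.36.

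Of 20 other listed genes of the contractile apparatus 19 were tested, and in OVA/PM against PBS/PBS 9 fell, 1 rose and 9 did not pass, beside the 10.9% of all probe sets called in each direction, with a median log2 fold change of -0.50 beside -0.03 over all probe sets tested. Ppp1r14a, an inhibitor of myosin phosphatase that keeps the light chain phosphorylated, read 12.13, 12.16 and 12.26 in PBS/PBS and 11.58, 11.24 and 11.36 in OVA/PM (log2 fold change -0.79, SE 0.12, adjusted p = 0.00698, limma). Itga8, an integrin chain of smooth muscle and lung fibroblasts, changed by -0.74 on the log2 scale, Myl6, a myosin light chain, by -0.69 and Pdlim3, a protein of the muscle Z-line, by -0.86 (SE 0.14, 0.14 and 0.18, adjusted p = 0.0142, 0.0193 and 0.0227, limma). The 1 that rose was Actn1, an actinin found in most cells, named after its value was seen, at 0.31 on the log2 scale (SE 0.09, limma's adjusted p = 0.0490). In OVA/PBS 3 of the 19 fell, Myl6 and the myosin phosphatase subunits Ppp1r12b and Ppp1r12a, and in PBS/PM 0 of the 19 were called. Of all probe sets 10.5% were called lower in OVA/PBS, and 0.0719% were called in either direction in PBS/PM. Without OVA/PM replicate 3 the count of 9 was 3 and the rise of Actn1 was not called, while 8.18% of all probe sets were called lower. Leaving out each of the 6 arrays in turn gave 1 to 7 falls in OVA/PM, and in OVA/PBS 0 to 5.

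Regulators of smooth muscle genes were measured better than Myocd itself. Of 15 listed, 12 were tested, and 10.9% of all probe sets were called in each direction in OVA/PM against PBS/PBS. There 3 of the 12 fell and 0 rose, with a median of -0.20. They were Foxo4, a forkhead factor that can restrain myocardin, Mef2a, a MADS-box factor of muscle, and Foxf1, a forkhead factor of lung mesenchyme, which changed by -0.65, -0.43 and -0.53 on the log2 scale (SE 0.10, 0.08 and 0.12, limma's adjusted p = 0.00868, 0.0149 and 0.0261). Mrtfb, a relative of myocardin, had -0.29 (SE 0.10, adjusted p = 0.0940, limma). In OVA/PBS 3 regulators fell too, beside 10.5% of all probe sets called lower. There Foxo4, Mef2a and Mrtfb changed by -0.61, -0.32 and -0.36 (SE 0.15, 0.08 and 0.10, limma's adjusted p = 0.0391, 0.0371 and 0.0482). Srf, which encodes serum response factor and was named for that role after its values were seen, read 8.29, 8.62 and 8.69 in PBS/PBS and 8.62, 8.50 and 8.58 in OVA/PM, a log2 difference of 0.03 (SE 0.13). Without OVA/PM replicate 3 the OVA/PM count of 3 regulators was 2. Over all omissions it was 1 to 3, and the OVA/PBS count was 0 to 3.

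Of 22 listed receptors and calcium-handling genes 12 were tested, and 4 fell and 0 rose in OVA/PM, with a median of -0.18. Of all probe sets 10.9% were called in each direction there, and 10.5% were called lower in OVA/PBS. Ednrb, an endothelin receptor, changed by -0.72 on the log2 scale, and Agtr1a, an angiotensin receptor, by -1.13 (SE 0.12 and 0.21, adjusted p = 0.00994 and 0.0134, limma). Gucy1a1 and Gucy1b1, the subunits of the nitric oxide receptor guanylate cyclase, changed by -0.57 and -0.42 (SE 0.13 and 0.10, adjusted p = 0.0296 and 0.0300, limma). Ednrb and both Gucy1 genes fell in OVA/PBS too, at -0.84, -0.55 and -0.54 (SE 0.22, 0.15 and 0.14). Chrm3, the muscarinic receptor through which acetylcholine contracts airway muscle, lay between 2.14 and 2.25 on all 12 arrays, under the filter level, and was not tested. Without OVA/PM replicate 3 the count of 4 was 3, and over all omissions it was 1 to 3, against 0 to 4 for the 3 that fell in OVA/PBS.

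Markers of other tissues moved with these genes. Of 19 genes of striated muscle (skeletal and cardiac) 7 fell and 0 rose in OVA/PM against PBS/PBS, with a median of -0.72, led by Ttn, Myot, Mb and Myh7, genes of the sarcomere and of oxygen storage, which changed by -1.94, -4.74, -2.14 and -0.72 on the log2 scale (SE 0.40, 0.99, 0.48 and 0.16, limma's adjusted p = 0.0201, 0.0212, 0.0267 and 0.0267). The heart muscle genes Tnnt2, Actc1, Myl7, Myl4, Casq2, Myh6, Tnni3 and Ryr2 changed by -0.02 to -0.70, and none was called. Nppa, of heart muscle too, had 1.36 (SE 0.85) and was not called. The skeletal muscle genes Tnnc2, Tnnt3, Acta1 and Myl1 changed by -5.02, -4.78, -4.02 and -2.88 (SE 1.91, 1.34, 1.49 and 0.83), and Tnnt3 alone of these was called. Ckm and Actn2 were called too, at -2.86 and -1.33 (SE 0.76 and 0.36, limma's adjusted p = 0.0423 and 0.0447). The heart and skeletal groups were named after the values were seen. The called genes Ttn, Mb, Myh7, Ckm and Actn2 were placed in neither, so these groups do not separate heart from skeletal muscle. The mean log2 intensity of the 19 genes was 11.53, 10.95 and 11.10 in PBS/PBS, 11.44, 11.34 and 10.62 in PBS/PM, 10.21, 11.40 and 11.77 in OVA/PBS, and 8.52, 10.24 and 9.82 in OVA/PM. OVA/PM replicate 1 was the lowest array, and its Cnn1 value was the lowest of all 12. The count of 7 stood beside 10.9% of all probe sets called lower. It was 1 without OVA/PM replicate 3, beside 8.18% of all, and 1 to 5 over all omissions. The skeletal actin Acta1, named after its values were seen, read 14.58, 13.09 and 13.18 in PBS/PBS and 6.02, 11.93 and 10.83 in OVA/PM. Myot read 9.67, 5.84 and 7.80 in PBS/PBS and 1.88, 3.85 and 3.37 in OVA/PM. Its OVA/PM values were under the filter level, so it was tested through PBS/PBS alone.

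As a description over 12 arrays that share their groups, Des and Cnn1 both correlated with the striated muscle mean at Pearson r = 0.90, and at 0.72 and 0.78 with group means taken off. For Acta2 and Myh11 the values were 0.71 and 0.68, and for Mylk 0.14. Des is itself expressed in striated muscle, so a part of its level need not come from smooth muscle. The part of striated muscle RNA in the falls was not tested.

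Vessel and blood cell genes also differed. Of 8 endothelial genes 7 fell in OVA/PM and 6 in OVA/PBS against PBS/PBS, at medians of -0.75 and -0.61, and their mean level lay between 12.62 and 12.69 in PBS/PBS, 12.55 and 12.71 in PBS/PM, 11.89 and 12.25 in OVA/PBS, and 11.87 and 12.01 in OVA/PM. Of 8 leukocyte genes 3 rose in OVA/PM and 2 in OVA/PBS, at medians of 0.93 and 0.92, led by Cd68 of macrophages at 2.04 and 2.27 (SE 0.33 and 0.28). In OVA/PBS 8.68% of all probe sets were called higher and 10.5% lower, and in OVA/PM 10.9% in each direction. The leukocyte mean ran from 9.52 to 10.60 in PBS/PBS, 9.98 to 10.41 in PBS/PM, 10.96 to 11.50 in OVA/PBS and 10.98 to 11.43 in OVA/PM. Without OVA/PM replicate 3 the counts in OVA/PM were 4 endothelial falls and 2 leukocyte rises, with 4 to 5 and 1 to 5 over all omissions, and in OVA/PBS the omissions gave 0 to 7 and 0 to 4, with 0 endothelial falls without OVA/PBS replicate 1 or 3 and 1 without PBS/PBS replicate 1 or 2. The member that followed the leukocyte mean most closely was Myh11, with r = -0.90 over the 12 arrays. The part of a changed mix of cells in the smooth muscle values was not tested.

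Cells that share genes with smooth muscle were looked at in the same way. Of 8 pericyte genes 2 fell in OVA/PM, the proteoglycan gene Cspg4 and the potassium channel subunit gene Abcc9, which changed by -0.64 and -0.42 on the log2 scale (SE 0.17 and 0.12, limma's adjusted p = 0.0449 and 0.0461), and the median was -0.34. Of 8 genes of activated fibroblasts, which can also express Acta2, 3 rose and 0 fell, Timp1, Thy1 and Tnc, at 4.80, 1.37 and 1.74 (SE 0.29, 0.17 and 0.26). Timp1 read 3.95, 4.51 and 4.54 in PBS/PBS, under the filter level. It was tested only because it was high in the exposed group, and its rise starts from values below that level. In OVA/PBS Timp1, Thy1 and Tnc rose too, at 4.74, 1.44 and 1.55 (SE 0.74, 0.21 and 0.34), where 8.68% of all probe sets were called higher. Over the omissions that OVA/PBS count was 0 to 3. Of 10 fibroblast genes 2 rose in OVA/PM, the collagen genes Col1a1 and Col3a1, and 3 fell. In OVA/PBS 3 of the 10 rose and 0 fell, with 0 to 3 of each over the omissions. In OVA/PM 1 of 8 lung epithelium genes rose and 2 fell, and of 4 mesothelium genes 1 fell. Beside these OVA/PM counts, 10.9% of all probe sets were called in each direction. Without OVA/PM replicate 3 the rises of activated fibroblast and fibroblast genes stayed at 3 and 2, and the falls numbered 0 among pericyte, 1 among fibroblast, 1 among epithelium and 0 among mesothelium genes, with 0 rises in epithelium.

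**Figure D4:**
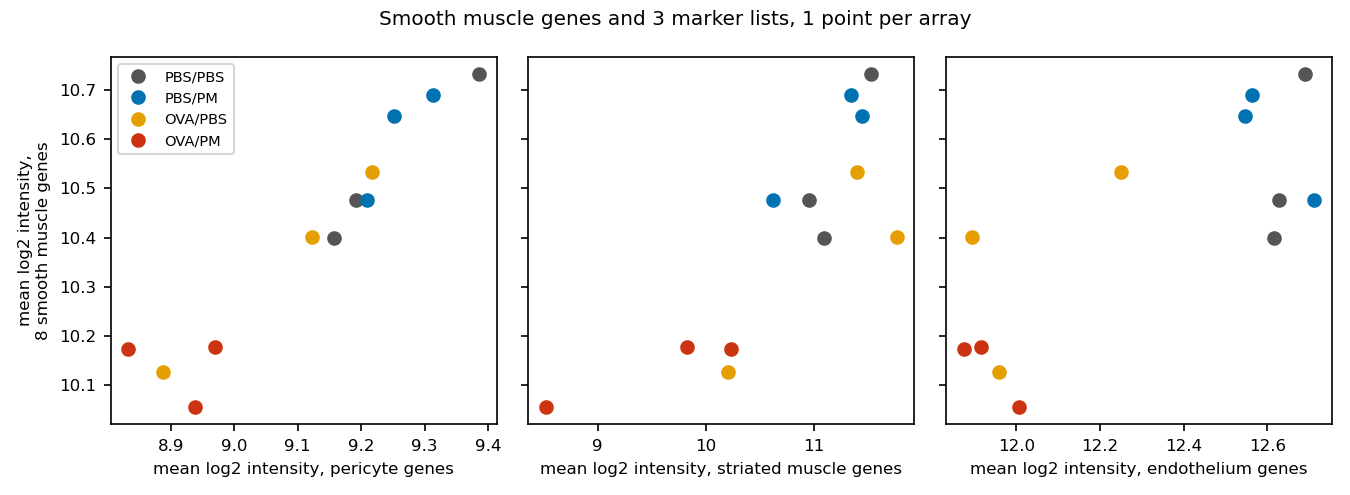
Mean log2 intensity of the 8 tested smooth muscle genes (y axis) against the mean log2 intensity of the pericyte, striated muscle and endothelium lists (x axes), 1 point per array and coloured by labelled group. The OVA/PM arrays lie between 10.06 and 10.18 on the y axis, and the PBS/PBS arrays between 10.40 and 10.73.

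The mean over the 8 tested members was 10.73, 10.48 and 10.40 in PBS/PBS, 10.65, 10.69 and 10.48 in PBS/PM, 10.13, 10.53 and 10.40 in OVA/PBS, and 10.06, 10.17 and 10.18 in OVA/PM. OVA/PBS replicate 1 lay among the OVA/PM arrays, and the other arrays lay above them. The members moved together in part. Over the 28 pairs of members, Pearson r over 12 arrays ran from 0.02 to 0.88 with a median of 0.61, and the median was 0.43 with group means taken off. With the pericyte mean the member mean had r = 0.96, and with the mean of the contractile apparatus list 0.92.

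Among 11348 other genes, those whose levels were most like the member mean over the 12 arrays were Cfl2, the cofilin of muscle, and Osbpl1a, a lipid transfer protein gene, both with r = 0.96. Tpm2, a tropomyosin of muscle, Smim10l1, Bod1 and Itgbl1 followed at 0.95, 0.94, 0.94 and 0.93. With group means taken off Cfl2 was again the most like, at 0.96, followed by Ldb3, Abcc9, Pdlim5, Aldoa and Sh3bgr at 0.93 to 0.91. Cfl2 read 11.89, 11.65 and 11.59 in PBS/PBS and 11.21, 11.36 and 11.36 in OVA/PM. These correlations rest on arrays that share groups and one normalization.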

How the data were processed

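Lung RNA of 12 animals was hybridised to 12 arrays of 45101 probe sets. The authors deposited log2 intensities normalized by GCRMA, which corrects for background by probe sequence, normalizes the arrays together by quantiles and summarizes each probe set. The submitters' processing notes also name MAS5, and versions are not given in the sources used here. Array medians lay between 4.84 and 5.03, and 0 columns belonged to no sample. Groups were taken from the sample titles, since the description of every array names a control animal. Symbols came from the platform annotation (34958 probe sets with 1 symbol, 932 with several, 9211 with none).

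Pairs of groups were fitted with limma 3.58.1 in R 4.3.3 (lmFit and eBayes, Benjamini-Hochberg adjustment over all probe sets tested, threshold 0.05), and the interaction in a fit of all 4 groups. The 64 control probe sets were left out. A filter at 4.93 took the place of the methods' detection calls, which were not used here. The permutation-based SAM test of the methods was not run. The fits were tested on simulated data. Of several probe sets of a gene the one with the highest mean was used. From each list up to 4 tested genes with the lowest p in OVA/PM against PBS/PBS were named, with Clca1 and Mmp12 for the labels and the 6 genes most like the member mean. Other genes (Actn1, Srf, Acta1, Ppp1r12a, Ppp1r12b, Chrm3, Sftpc and the striated muscle genes beyond the first 4) were named after their values were seen. The members and lists were chosen with earlier results of these data known. Results were repeated unfiltered, with the filter raised to 8.65 (the 75th percentile), with 16 added to linear values, after another quantile normalization, with a block for the replicate number, with all 4 groups in 1 fit, with an intensity trend with robust moderation, on the second probe set and without each array. List counts without each array, and overlap counts without OVA/PM replicate 3, were added after seeing the data.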

Additional observations from a re-analysis of the deposited data

How the results depend on the processing

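The median log2 fold change of the members kept its direction or moved by less than the replicate spread under all 84 alternatives. Counts of called members were less stable, and with 3 arrays per group a call near the threshold is limited by the number of arrays. Replicate numbers did not pair the arrays: of 18 same-numbered pairs 3 had deviations from group means with r over 0.1, the median r was -0.06, and the best partner had the same number for 2 of 12 arrays. With the replicate number as a block the count in OVA/PM against PBS/PBS was 1 in place of 3, and in OVA/PM against PBS/PM it was 0 in place of 2. Without a filter the latter was also 0. On second probe sets it was 1, the call of Mylk 1425505_at (log2 fold change -0.44, SE 0.09, adjusted p = 0.0272, limma). The second probe sets of Des and Myh11 did not pass the filter, so their calls could not be repeated in this way. In OVA/PBS against PBS/PBS the second probe set, of Mylk, made the count 1 in place of 0. In OVA/PBS against PBS/PM it became 2 with the filter at the 75th percentile, 2 in a fit of all 4 groups and 1 with an intensity trend and robust moderation, in place of 0. Leaving out 1 array gave counts of 0 to 4 for OVA/PM against PBS/PBS, 0 to 1 for OVA/PM against PBS/PM and 0 to 1 for OVA/PBS against PBS/PM, where the 1 came without OVA/PBS replicate 2. The cause of these changes was not tested.

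Signs changed in 25 cases for genes that were not called. For Mylk in PBS/PM against PBS/PBS the second probe set gave -0.29. The others came from leaving out 1 array. In PBS/PM against PBS/PBS the log2 fold changes then ran from -0.182 to 0.0857 for Cnn1, -0.121 to 0.0857 for Tagln, -0.156 to 0.112 for Des, -0.0968 to 0.308 for Actg2 and -0.0730 to 0.177 for Acta2. In OVA/PBS against PBS/PBS they ran from -0.225 to 0.0251 for Des, -0.0827 to 0.322 for Actg2 and -0.364 to 0.0197 for Lmod1. In OVA/PM against PBS/PBS they ran from -0.343 to 0.0612 for Actg2, and in OVA/PM against OVA/PBS from -0.215 to 0.194 for Lmod1 and -0.281 to 0.0363 for Tagln. In OVA/PBS against PBS/PM they ran from -0.176 to 0.0354 for Des and -0.112 to 0.187 for Actg2.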
